A study of Mus musculus with 18 samples.

Results

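Dyrk1a is a protein kinase gene on mouse chromosome 16 that is carried in 3 copies in both mouse models of Down syndrome studied here, Ts65Dn and Ts1Cje. It is 1 of 8102 genes that could be named on the Illumina MouseWG-6 v1.1 BeadArray, and 1 of the 46657 probes measures it, chosen by the NCBI gene number in its target identifier. Enriched male germ cells of juvenile mice were profiled on 18 arrays, 1 per RNA sample. Ts65Dn, Ts1Cje and WT mice were each sampled at the ages of 16-17 and 19-20 days after birth (days post partum, dpp), which makes 6 groups of 3 biological replicates. Ts65Dn carries a small extra marker chromosome with distal chromosome 16 and a proximal piece of chromosome 17. Ts1Cje carries a shorter distal part of chromosome 16 translocated to chromosome 12. WT mice were littermates without a trisomy, and the labels do not say of which line. The same WT arrays are therefore the controls for both models. The trisomies are not limited to the testis, and the extra segments hold many genes beside Dyrk1a. Copy number in the profiled cells was not measured here.

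DYRK1A phosphorylates its own activation loop on tyrosine as it is made, and then phosphorylates other proteins on serine and threonine. Its known targets include the NFAT transcription factors, which the phosphatase calcineurin brings into the nucleus and DYRK1A helps to send out. They also include LIN52, through which it drives assembly of the DREAM complex that silences cell cycle genes, as well as cyclin D1 and splicing factors. The gene is sensitive to dose: loss of 1 copy impairs brain growth in humans and mice. The ages sampled fall in the first round of sperm formation, when germ cells go through meiosis for the first time.

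The gene spans 125573 bases of chromosome 16 in GRCm38.p6, at chr16:94569947-94695519, and lies on the plus strand. RefSeq lists 3 start windows for it, and the single probe does not tell transcripts from different starts apart. The first window, chr16:94569956-94570255, is shown because it is the annotated promoter nearest the gene's 5′ end and belongs to the DNA present in an extra copy. Capitals mark CG dinucleotides.
Dyrk1a first promoter: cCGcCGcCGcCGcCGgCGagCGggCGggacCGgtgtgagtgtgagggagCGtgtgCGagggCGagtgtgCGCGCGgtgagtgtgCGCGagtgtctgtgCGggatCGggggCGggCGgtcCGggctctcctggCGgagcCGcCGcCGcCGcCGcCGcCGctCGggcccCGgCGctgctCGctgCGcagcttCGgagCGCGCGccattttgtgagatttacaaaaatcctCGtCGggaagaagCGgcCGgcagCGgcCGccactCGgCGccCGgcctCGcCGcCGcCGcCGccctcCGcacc
It holds 54 CG dinucleotides in 300 bases, and 0.347% of 32851 RefSeq mouse promoter windows of this length hold at least as many. The second window, chr16:94570657-94570956, holds 30 and the third, chr16:94611169-94611468, holds 3. The arrays measured no feature of these windows themselves.

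The Dyrk1a probe was detected on all 18 arrays, with detection p-values, which set its signal against that array's negative controls, of at most 0.0119. Each reading averaged 26 to 46 beads, and the standard error over beads was 3.23% to 7.47% of the signal. In the deposited signal, before any background correction or normalisation, the WT arrays at 16-17 dpp read 512, 434 and 502. The Ts1Cje arrays of that age read 572, 882 and 659, and the Ts65Dn arrays read 1164, 889 and 624. All trisomic readings at 16-17 dpp were above the 3 WT readings. At 19-20 dpp the WT arrays read 490, 502 and 397, the Ts1Cje arrays 538, 648 and 526, and the Ts65Dn arrays 582, 627 and 607. The 2 trisomic groups were again above WT, with less spread than at the younger age. Over all 18 arrays, the median signal of all probes was 179 to 225, with 17102 to 19784 probes detected at a p under 0.05.

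**Figure D1:**
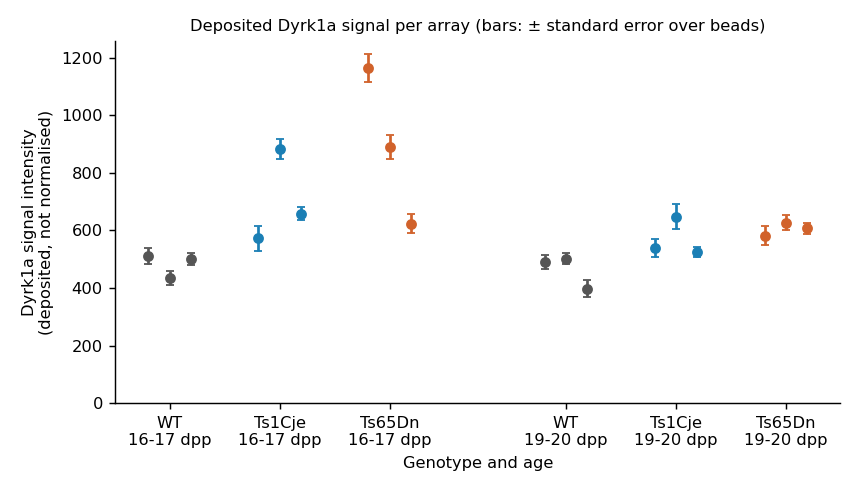
Deposited signal intensity of the Dyrk1a probe (y axis, linear, from 0) on each array, by genotype and age (x axis), with bars for the standard error over beads. Every trisomic array reads higher than the 3 WT arrays of its age, and the highest reading, 1164, is a Ts65Dn array at 16-17 dpp.

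After background correction and quantile normalisation, the Dyrk1a level was lowest in both WT groups. On the log2 scale the WT arrays were at 8.54, 8.19 and 8.61 at 16-17 dpp and at 8.30, 8.27 and 8.08 at 19-20 dpp. The Ts1Cje arrays were at 8.67, 9.40 and 9.25 at the younger age and at 8.73, 8.73 and 8.73 at the older. The Ts65Dn arrays were at 9.59, 9.37 and 9.03 at the younger age and at 8.64, 8.79 and 8.70 at the older. All 12 trisomic arrays were above all 6 WT arrays. The margin was narrow, since the lowest trisomic array, at 8.64, was 0.03 above the highest WT array, at 8.61. Of the 21330 probes, 63 (0.295%) had all Ts65Dn arrays above all WT arrays and 3 (0.0141%) had all Ts1Cje arrays above them. No other of the 21330 tested probes separated the 12 from the 6 in this direction (1 probe, 0.00469%), and the same held without background correction, with an offset of 50 and in the deposited series table. With median scaling in place of quantile normalisation no probe did, Dyrk1a included.

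Where each array was set only against WT of its own age, 4 of the 21330 probes (0.0188%) had every trisomic group above WT. The named ones among these were Dyrk1a, Psmg1, a proteasome assembly factor in the same triplicated segment, and Slc25a25, a mitochondrial carrier encoded on chromosome 2. The fourth probe carries no gene name here, and these genes were picked out after their values were seen. With median scaling 3 probes did so, and Dyrk1a was among them.

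**Figure D2:**
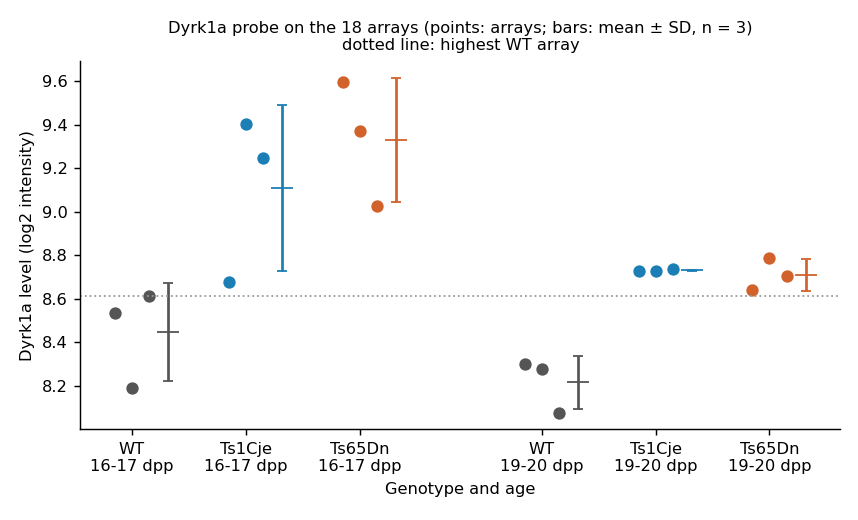
Dyrk1a level (y axis, log2 intensity after background correction and quantile normalisation) on each array, by genotype and age (x axis), with group means ± SD (n = 3). All 12 trisomic points lie above the dotted line at the highest WT array, 8.61, and the 3 Ts1Cje points at 19-20 dpp nearly coincide at 8.73.

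The order of the group means was Ts65Dn at 16-17 dpp (9.33 ± 0.29, SD, n = 3), Ts1Cje at 16-17 dpp (9.11 ± 0.38), Ts1Cje at 19-20 dpp (8.73 ± 0.0041), Ts65Dn at 19-20 dpp (8.71 ± 0.074), WT at 16-17 dpp (8.45 ± 0.22) and WT at 19-20 dpp (8.22 ± 0.12). Within this order, the arrays of the first group overlap those of the second, and the third overlaps the fourth. The second group overlaps the third because Ts1Cje replicate 1 at 16-17 dpp, at 8.67, lies below all 3 older Ts1Cje arrays. The lowest Ts65Dn array at 19-20 dpp is just above the highest WT array at 16-17 dpp, and the arrays of the WT groups overlap as well, at 8.19 and 8.30.

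Whether the third copy is matched by a higher transcript level was asked for each model over both ages. In Ts1Cje, Dyrk1a was 0.59 ± 0.14 higher than in WT on the log2 scale (limma estimate, SE, n = 6 and 6), a 1.50-fold level with a 95% interval of 1.23 to 1.83. In Ts65Dn it was 0.69 ± 0.14 higher, a 1.61-fold level with an interval of 1.32 to 1.97. Both intervals contain the copy ratio of 3 to 2, which is 0.58 on the log2 scale. The size of the estimates depended on the processing. Without background correction they were 0.42 in Ts1Cje and 0.50 in Ts65Dn, and with median scaling 0.60 and 0.89. An exact permutation test (two-sided, genotype exchanged within each age) gave p = 0.005 for each model, the smallest p that 400 arrangements allow. For both models together the difference was 0.64 ± 0.12, or 1.56-fold (interval 1.31 to 1.85), with an exact permutation p of 0.00014, the smallest that 7056 arrangements allow.

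These differences did not pass after adjustment over all 21330 probes. The adjusted p from limma was 0.057 for Ts65Dn, 1.00 for Ts1Cje and 0.25 for both. In these comparisons 0.0938%, 0% and 0% of all tested probes were called at an adjusted p under 0.05. The count of 0 for Ts1Cje stands beside 418 probes (1.96%) at an unadjusted p under 0.05, and that for both models beside 1655 (7.76%). By the size of the moderated statistic, Dyrk1a ranked 3 of 21330 in Ts1Cje, 4 in both models together and 49 in Ts65Dn. The Ts65Dn difference passed at an adjusted p of 0.015 when only the Ts65Dn and WT arrays were fitted. It was larger with median scaling, at 0.89, where the median of all probes lay at 0.19 and not at 0.04. Relative to that median, the Ts65Dn difference was 0.65 with quantile normalisation and 0.69 with median scaling.

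Separately by age, the difference was largest in Ts65Dn at 16-17 dpp, at 0.88 ± 0.19 or 1.85-fold (interval 1.39 to 2.45, adjusted p = 0.18, 0.0188% of probes called). Ts1Cje at that age was 0.66 ± 0.19 higher, or 1.58-fold (1.19 to 2.10, adjusted p = 1.00, 0% called, 427 or 2.00% at an unadjusted p under 0.05). At 19-20 dpp the models were close to each other, with Ts65Dn 0.49 ± 0.19 above WT, or 1.41-fold (1.06 to 1.87, adjusted p = 0.11, 4.83% called). Ts1Cje was 0.51 ± 0.19 above WT, or 1.43-fold (1.08 to 1.89, adjusted p = 1.00, 0% called, 634 or 2.97% at an unadjusted p under 0.05). None of these 4 comparisons passed, and the interval of each holds the copy ratio. In single comparisons, non-overlap of 3 arrays with 3 was common among all probes: 10.6% of them had Ts65Dn above WT at 16-17 dpp and 25.3% at 19-20 dpp, against 2.53% and 1.80% for Ts1Cje.

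The array numbers in the file headers run in 3 sets of 6 consecutive numbers, each with 1 array of every group, and the headers do not say what a set is. Within these sets the trisomic array exceeded the WT array of the same age by 0.14 to 1.21, with a median of 0.56 over 12 differences that share 6 WT arrays. Their sign follows from the separation of all trisomic from all WT arrays and adds nothing to it. The smallest of these differences, 0.14, is that of Ts1Cje replicate 1 at 16-17 dpp. With the set as a block, the Ts65Dn difference over both ages stayed at 0.69 and its adjusted p became 0.044.

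The longer and the shorter trisomy were not told apart by Dyrk1a. Ts65Dn was 0.22 ± 0.19 above Ts1Cje at 16-17 dpp (interval −0.19 to 0.63, adjusted p = 0.96), where 0% of probes were called and 1084 (5.08%) had an unadjusted p under 0.05. Leaving out 1 array at a time moved this value between 0.0059, without Ts1Cje replicate 1, and 0.37, without Ts65Dn replicate 3. The arrays of the models overlapped for Dyrk1a at this age, whereas 6.23% of all probes had all Ts65Dn arrays above all Ts1Cje arrays. At 19-20 dpp the difference was −0.02 ± 0.19 (−0.43 to 0.39, adjusted p = 0.95), in a comparison where 11.8% of all probes were called. At the older age, median scaling moved it to 0.24, where the median of all probes lay at 0.26.

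**Figure D3:**
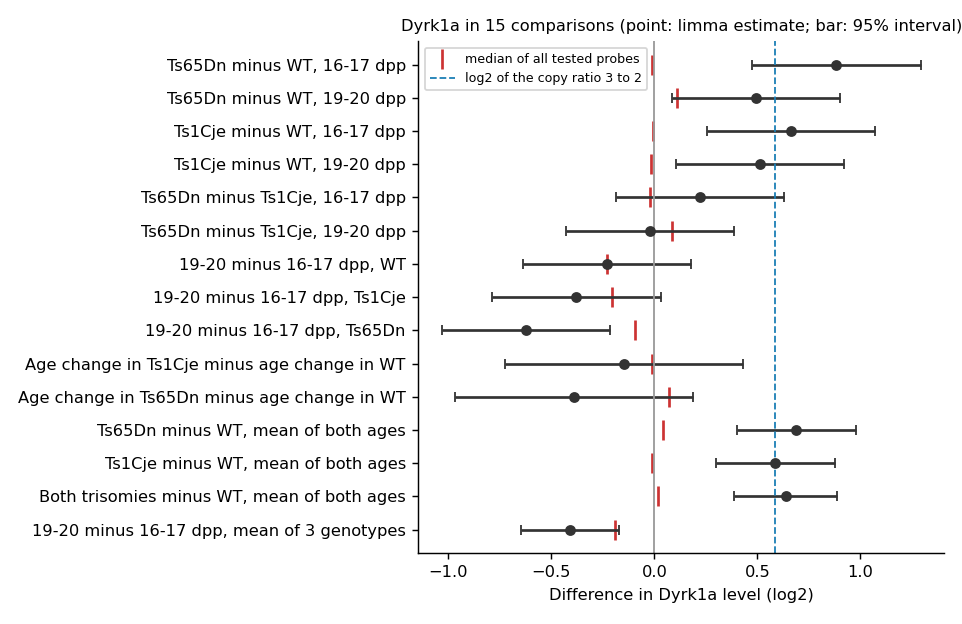
Difference in Dyrk1a level (x axis, log2) in 15 comparisons, as limma estimates with 95% intervals, beside the median of all tested probes (red ticks) and the log2 of the copy ratio (dashed line). The 7 intervals of a trisomic level minus WT exclude 0 and contain the copy ratio, whereas those between the models contain 0.

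With age the Dyrk1a level fell. Over the 3 genotypes the change from 16-17 to 19-20 dpp was −0.41 ± 0.11 (SE, adjusted p = 0.0046), with an exact permutation p of 0.003, where 0.00025 is the smallest that 8000 arrangements allow. Such falls were frequent, since 65.5% of all tested probes were called and 42.1% were called lower, and the median of all probes was −0.19. Relative to the median of all probes, the Dyrk1a change was −0.22 over the 3 genotypes, 0.0029 in WT, −0.17 in Ts1Cje and −0.53 in Ts65Dn, so that in WT it was that of the typical probe. Within genotypes the changes were −0.23 ± 0.19 in WT (adjusted p = 0.33, 28.1% of probes called lower), −0.38 ± 0.19 in Ts1Cje (adjusted p = 0.12, 27.3%) and −0.62 ± 0.19 in Ts65Dn (adjusted p = 0.055, 2.54%), none of which passed. The Ts65Dn arrays of the 2 ages did not overlap, and 27.9% of all probes were likewise lower on all 3 older Ts65Dn arrays. The Dyrk1a arrays of the 2 ages overlapped in WT and in Ts1Cje, where 37.0% and 28.8% of all probes were lower on all older arrays. Within the sets of array numbers the age change was above 0 in 2 of 9 cases, at 0.11 in WT and 0.05 in Ts1Cje, and ranged down to −0.96 with a median of −0.51.

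The age change was not shown to depend on genotype. The difference in age change from WT was −0.15 ± 0.27 for Ts1Cje (interval −0.73 to 0.43, adjusted p = 1.00) and −0.39 ± 0.27 for Ts65Dn (−0.97 to 0.18, adjusted p = 0.53). Both interaction tests called 0% of probes by limma, with 605 (2.84%) and 3081 (14.4%) probes at an unadjusted p under 0.05. Leaving out 1 array at a time moved the Ts1Cje value between −0.36 and −0.0016 (adjusted p 0.92 to 1.00), the extremes being without Ts1Cje replicates 1 and 2 at 16-17 dpp. It moved the Ts65Dn value between −0.54 and −0.26 (adjusted p 0.44 to 0.77), the extremes being without Ts65Dn replicates 3 and 1 at 16-17 dpp. The age change within Ts1Cje, a different quantity, was −0.59 without Ts1Cje replicate 1 at 16-17 dpp (adjusted p = 0.016). Without the same array, the Ts1Cje difference from WT at that age was 0.88.

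Markers of germ cell stages and of other testis cells moved with age and genotype as well. In bulk samples, fewer cells of a type and less RNA per cell cannot be told apart. Few listed genes were tested: 5 of 12 round spermatid, 2 of 11 pachytene to diplotene, 3 of 11 spermatogonial and 2 of 12 meiotic prophase genes. With age, 5 of 5 tested round spermatid genes rose (median 2.40) and 2 of 2 tested pachytene to diplotene genes rose (median 2.25), beside 23.4% of all probes. All 3 tested spermatogonial genes fell (median −0.81), beside 42.1% of all probes. So did both tested genes of the meiotic prophase list (median −0.999), the cohesin subunits Smc3 and Smc1a, which are also used outside meiosis. The 4 tested genes of the meiotic lists were detected on all 18 arrays. Of the 3 spermatogonial genes 2 were, and the other was detected on 13 arrays. Of the 5 round spermatid genes 2 were, and the fewest arrays for any of them was 7. A gene detected on 7 arrays can pass the filter through the older arrays alone. The count of 5 of 5 is therefore no support by itself.

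In Ts65Dn against WT at 19-20 dpp, where 57.3% of all probes were above 0, all 3 spermatogonial genes were above 0 (median 0.62). Their mean log2 level ranged from 9.13 to 9.42 on the Ts65Dn arrays and from 8.59 to 8.78 on the WT arrays. Both meiotic prophase genes were above 0 (median 0.70), and Smc3 was called higher. Both pachytene to diplotene genes were below 0 (median −1.31), and Aurkc, a meiotic aurora kinase, was called lower. All 5 round spermatid genes were below 0 (median −1.51), with Spata20 called lower, and their mean level was 9.06 to 10.19 in Ts65Dn and 10.91 to 11.88 in WT. The fewest arrays on which any of these 5 was detected was 7. Such a gene can pass the filter through older WT or Ts1Cje arrays, where it is high. This count of 5 is therefore no support by itself either. In this comparison 1.81% of all probes were called higher and 3.02% called lower. With median scaling none of the 3 calls of Smc3, Aurkc and Spata20 passed (adjusted p = 0.068, 0.062 and 0.053). In Ts1Cje at this age the medians of the 4 lists were −0.26, −0.06, −0.07 and 0.04, with 0 genes and 0% of all probes called by limma.

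Of the somatic markers, those of Sertoli cells (2 of 10 listed genes tested, such as Wt1) and endothelial cells (2 of 5) were above 0 in Ts65Dn at both ages, as Dyrk1a was. The Sertoli medians were 0.45 at 16-17 dpp and 0.77 at 19-20 dpp, with 0 called, and in Ts1Cje −0.17 and 0.30. Of all probes 0.0188% and 4.83% were called in Ts65Dn at these ages, and 0% in Ts1Cje at either. The endothelial medians were 0.42 and 0.84 in Ts65Dn and 0.20 and 0.06 in Ts1Cje. Eng, a TGF-beta co-receptor, was called higher in Ts65Dn at 19-20 dpp (1.43 ± 0.34, adjusted p = 0.035, 1.81% of all probes called higher). Leydig genes (6 of 8, such as the steroid synthesis genes Star and Cyp11a1) had medians of 1.17 and −0.55 in Ts65Dn. In Ts1Cje their medians were 0.46 and 0.50, with 0 called in either model beside the same shares of all probes. Their mean log2 level at 16-17 dpp ranged from 7.27 to 7.31 in WT, from 6.76 to 8.27 in Ts1Cje and from 7.74 to 8.94 in Ts65Dn. At 19-20 dpp it ranged from 6.81 to 7.16 in WT, from 6.29 to 8.22 in Ts1Cje and from 6.26 to 6.62 in Ts65Dn. Macrophage genes (4 of 6) had medians of 0.36 and −1.02 in Ts65Dn and of 0.42 and 0.55 in Ts1Cje. Red cell genes (2 of 4) were at 0.61 and −0.55 in Ts65Dn and at 0.83 and −0.40 in Ts1Cje. Peritubular genes (3 of 6) were at 0.06 and 0.41 in Ts65Dn and at 0.22 and −1.01 in Ts1Cje. Of the Sertoli, endothelial, Leydig, macrophage, red cell and peritubular genes, 1, 0, 1, 0, 1 and 2 were detected on all 18 arrays. The fewest arrays for any gene of these lists were 16, 17, 4, 11, 6 and 14, in the same order. A gene detected on few arrays can pass the filter through the group where it is high. The Leydig and red cell medians and levels are therefore no support by themselves. The part of cell composition in the Dyrk1a differences was not tested.

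Other genes of the same pathway were read from 5 lists of relatives, regulators and substrates of DYRK1A with 71 genes. Of these, 33 had a named probe and 25 were tested. Against WT over both ages limma called 0 of 25 in Ts65Dn (median 0.20, against 0.04 for all probes) and 0 of 25 in Ts1Cje (median −0.04, against −0.01). Of all tested probes 0.0938% were called in Ts65Dn and 0% in Ts1Cje, so 0 of 25 is near the share of all probes. In Ts65Dn 5482 probes (25.7%) had an unadjusted p under 0.05. Above 0 were 19 of 25 in Ts65Dn, where 54.3% of all probes were above 0, and 6 of 25 in Ts1Cje, where 46.6% were. With age 17 of 25 fell and 4 rose (median −0.53, against −0.19), beside 42.1% and 23.4% of all probes.

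Among the relatives, Dyrk3, a kinase of the same family linked to the dissolution of condensates, was the only one tested, and it went the other way from Dyrk1a with age. Its WT arrays were at 9.94, 9.56 and 9.70 at 16-17 dpp and at 12.19, 11.77 and 11.70 at 19-20 dpp on the log2 scale. The WT groups were far apart, and Ts1Cje was similar, at 9.58 ± 0.12 and 11.86 ± 0.83 (SD, n = 3). In Ts65Dn the older arrays, at 10.87, 10.00 and 10.41, stayed below all older WT arrays. Over the 3 genotypes Dyrk3 rose with age by 1.72 ± 0.19 (SE, adjusted p = 6.8e-06). In Ts65Dn at 19-20 dpp it was lower than in WT by −1.46 ± 0.33 (adjusted p = 0.032), with 3.02% of all probes called lower. With median scaling the difference was −1.31 and did not pass (adjusted p = 0.061).

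Of the calcineurin and NFAT genes, 7 of 16 were tested, and with age 2 rose and 5 fell, beside 23.4% and 42.1% of all probes. Both that rose encode calcineurin subunits. Ppp3r2, the testis form of the regulatory subunit, rose by 4.22 ± 0.56 over the 3 genotypes (adjusted p = 2.8e-05). In WT it went from 12.04, 8.77 and 9.63 at 16-17 dpp to 14.81, 14.64 and 14.45 at 19-20 dpp, so that its younger arrays differed widely among themselves. Ppp3ca, a catalytic subunit, rose by 0.79 ± 0.11, while Ppp3cb, another catalytic subunit, fell by −0.54 ± 0.09. The transcription factors Nfatc3, Nfatc2 and Nfat5 fell by −0.67 ± 0.09, −0.67 ± 0.24 and −0.61 ± 0.15, as did Rcan3, a calcineurin regulator, by −0.97 ± 0.17. Against WT over both ages, limma called none of the 7 in either model, with medians of 0.21 in Ts65Dn and −0.04 in Ts1Cje. Of all probes 0.0938% were called in Ts65Dn and 0% in Ts1Cje.

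Of the DREAM and cell cycle genes, 6 of 18 were tested, and with age 3 fell and none rose. Of all probes 42.1% were called lower with age and 23.4% higher, so that the share that fell is near that of all probes. Ccnd1, which encodes cyclin D1, fell by −1.06 ± 0.19, Tfdp2, a dimer partner of E2F factors, by −1.06 ± 0.16 and Ccnd3, cyclin D3, by −0.51 ± 0.18. Genotype differences of Ccnd1 were 0.51 ± 0.23 in Ts65Dn and −0.02 ± 0.23 in Ts1Cje, and they did not pass (limma adjusted p = 0.18 and 1.00). Of the splicing factors, 3 of 8 were tested, of which Srsf1 and Srsf2 fell with age by −0.42 ± 0.09 and −0.43 ± 0.10, beside the same 42.1% of all probes. Of the transcription and other substrates, 8 of 21 were tested, 7 fell and 1 rose, beside 42.1% and 23.4% of all probes. They included Foxo1, a transcription factor that is also in the spermatogonial marker list, by −0.81 ± 0.14, Stat3 by −0.76 ± 0.16, and Dnm1, a dynamin, which rose by 0.45 ± 0.14.

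Neighbours in the triplicated segment, from Setd4 to Zbtb21, gave 10 tested genes of 34, of which 7 were detected on all 18 arrays. Dscam was detected on no WT array, so that it was tested only through the trisomic arrays where it is high, and counts that hold it are no support. Of all 10, Dscam included, 10 were above WT over both ages in Ts1Cje, and in Ts65Dn 9 were above and 1 was below. The 7 detected throughout, a choice made after seeing the data, were above WT over both ages in 7 of 7 cases in Ts1Cje (median 0.39, 46.6% of all probes above 0) and in 7 of 7 in Ts65Dn (median 0.47, 54.3% above 0). This choice left out the neighbour that was below WT in Ts65Dn. Limma called none of the 10 over both ages, where 0.0938% of all probes were called in Ts65Dn and 0% in Ts1Cje. With median scaling it called Ttc3 (0.94, adjusted p = 0.046) and Dscam (1.04, adjusted p = 0.0498) in Ts65Dn. Mx2, an interferon-induced GTPase, differed in opposite directions in Ts65Dn, by 0.59 ± 0.23 at 16-17 dpp (adjusted p = 0.56) and by −0.90 ± 0.23 at 19-20 dpp (adjusted p = 0.044, and 0.092 with median scaling). Ttc3, a ubiquitin ligase gene near Dyrk1a, was called higher in Ts65Dn at 19-20 dpp (1.05 ± 0.22, adjusted p = 0.027). In Ts65Dn against WT at that age, 1.81% of all probes were called higher and 3.02% called lower. Psmg1 was 0.37 ± 0.10 and 0.33 ± 0.10 higher and Ttc3 0.39 ± 0.16 and 0.81 ± 0.16, in the order Ts1Cje and Ts65Dn.

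**Figure D4:**
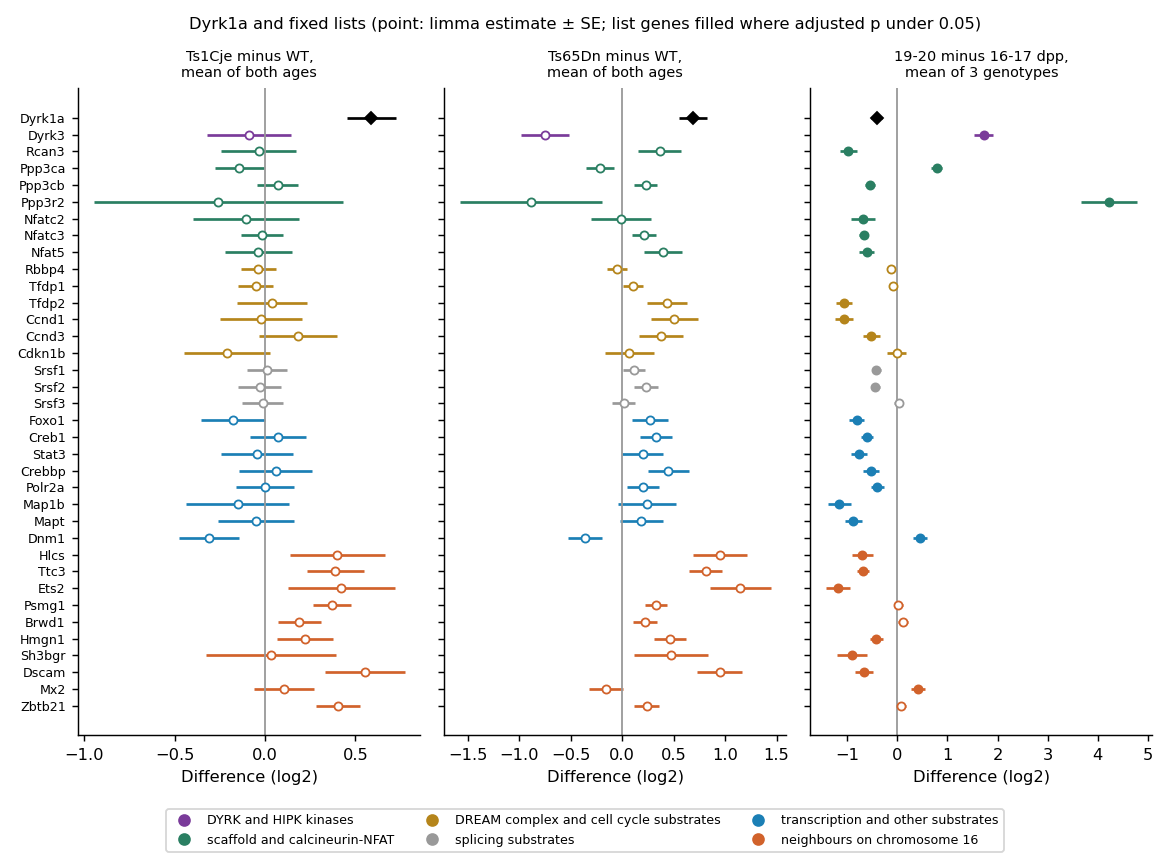
Log2 differences (x axes) of Dyrk1a and of each tested gene of the fixed lists (y axis), as limma estimates ± SE, in each model against WT over both ages and with age over the 3 genotypes; list genes are filled where the adjusted p was under 0.05. No list gene is filled in the genotype panels, where 0% of all tested probes were called in Ts1Cje and 0.0938% in Ts65Dn. With age 21 of the 25 pathway genes are filled, beside 65.5% of all tested probes called. Dscam was not detected on any WT array.

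The genes whose levels ran most like those of Dyrk1a over the 18 arrays were sought among 4811 named tested genes. The highest Pearson correlations were those of Celsr1, a planar polarity cadherin (r = 0.89), Dscam, an adhesion gene of the same triplicated segment (0.87), Herc4, a ubiquitin ligase (0.86), Washc1, a subunit of an actin-nucleating complex (0.86), and Adi1, an enzyme of methionine salvage (0.85). Of these, Washc1 alone was detected on all 18 arrays. Celsr1 and Dscam were detected on 7 arrays each, none of them WT, Adi1 on 3, again none of them WT, and Herc4 on 8, of which 1 was WT. Celsr1, Dscam and Adi1 thus passed the filter on detection only through trisomic arrays, where Dyrk1a is high too. Herc4 also needed trisomic arrays to pass, since 1 WT array is under the minimum of 3. The filter therefore favoured the likeness of these 4 genes to Dyrk1a. With group means removed, the correlations were 0.81, 0.71, 0.85, 0.74 and 0.59 in the same order. The lowest correlations were those of Pole3, a DNA polymerase subunit (−0.78), Nras, a small GTPase (−0.77), and Ttll13, a tubulin-modifying enzyme (−0.77), each detected on all 18 arrays. All these points share the age and genotype groups and the normalisation.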

How the data were processed

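Per the file headers, each array has 4 deposited values a probe: the mean signal intensity of its beads, the standard error of that signal, the count of beads and a detection p-value. BeadStudio, of a version not given in the sources used here, is named in the submitters' processing notes. The authors' deposited series table holds, from its values, quantile-normalised log2 intensities, and was an alternative. The intensities were background-corrected from the detection p-values (limma nec, offset 16), 278 control and spike-in probes were left out, and log2 values were quantile-normalised. Probes detected at p under 0.05 on at least 3 arrays were tested, 21330 in all. One limma model with 6 group terms and 18 arrays gave 15 contrasts, each adjusted by Benjamini-Hochberg over all tested probes. The number of arrays limits the precision.

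Genes were named where the zero-padded number in the target identifier was a gene number of the GRCm38.p6 table: 9796 of 11857 padded numbers, for 8102 genes. A gene is represented by its brightest tested probe. Named genes were Dyrk1a, members of the lists called or counted, and the 5 highest and 3 lowest correlations. The members, lists and tests were chosen with earlier results of these data known. The fit was tested on simulated data. Groups came from the sample titles. Software was R 4.3.3, limma 3.58.1, python 3.11.15, numpy 2.4.6, pandas 2.3.3 and matplotlib 3.10.9.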

Additional observations from a re-analysis of the deposited data

How the results depend on the processing

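Over the planned and added alternatives, 281 values of Dyrk1a kept their direction and their side of the threshold, 19 kept the direction and came to pass it, 2 changed sign and 0 lost a call. The difference from WT stayed above 0 under every alternative run, from 0.50 to 0.89 in Ts65Dn and from 0.42 to 0.70 in Ts1Cje over both ages.

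Array weights made 6 differences pass in limma: Ts65Dn minus WT over both ages (0.66), at 16-17 dpp (0.83) and at 19-20 dpp (0.48), both models minus WT (0.62), and the age changes in Ts1Cje (−0.46) and Ts65Dn (−0.66). Ts65Dn minus WT over both ages also passed with the sets of array numbers as a block (0.69), with only the groups compared (0.69), with median scaling (0.89) and with the replicate block (0.69, adjusted p = 0.013). The age change in Ts65Dn passed with the same sets (−0.62), only the groups compared (−0.62), only probes detected on all arrays (−0.62), the deposited table (−0.48), no background correction (−0.48) and the replicate block (−0.62, adjusted p = 0.035). The replicate block changed no other call. Deviations from group means of same-numbered arrays correlated at −0.30 to 0.64 for replicate 1 (median 0.31 over 15 pairs), 0.15 to 0.58 for replicate 2 (0.34) and −0.23 to 0.42 for replicate 3 (0.10). Pairs of replicate 2 thus all deviated together, whereas some of replicates 1 and 3 did not, and the numbers were not taken to pair the samples. The set block was chosen after seeing the data. Ts65Dn minus Ts1Cje at 19-20 dpp, at −0.02, changed sign with median scaling (0.24). The cause of these changes was not tested.

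Leaving out 1 array at a time gave −0.59 to −0.23 for the age change in Ts1Cje, which passed without Ts1Cje replicate 1 at 16-17 dpp. It gave 0.57 to 0.69 for both models minus WT, which passed without the same array, and 0.62 to 0.76 for Ts65Dn minus WT over both ages, which passed without Ts65Dn replicate 1 at 19-20 dpp (0.71). Ts65Dn minus Ts1Cje at 19-20 dpp ranged from −0.059 to 0.014, changing sign without that Ts65Dn array. A fit with only the groups compared is the main fit where a comparison uses all groups.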
